A study of Gossypium hirsutum with 6 samples.

Results

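The 128 genes described here are the histone genes of upland cotton (Gossypium hirsutum), out of 73622 genes in the authors' table. A gene was a member if the Swiss-Prot description of its best protein hit named histone H1, H2A, H2B, H3 or H4 and did not name a transferase, a chaperone or a demethylase, so that enzymes acting on histones stayed out. The members were 11 genes for H1, 49 for H2A, 26 for H2B, 22 for H3 and 20 for H4. The KEGG entry in the same table named the member's own class for 127 of the 128. By description, the H2A genes divide into 18 for H2A.Z, 11 for H2AX and 20 others, and the H3 genes into 12 for H3.2, 8 for H3.3 and 2 for the centromeric form. On chromosomes of the A subgenome lay 66 members, on those of the D subgenome 61, and 1 on an unplaced contig.

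The libraries came from fibers of strain 63, collected 5 days after flowering (5DPA, days post-anthesis) or 15 days after it (15DPA), with 3 libraries a stage that the labels call biological replicates. Each cotton fiber is 1 elongated epidermal cell of the seed coat. Both stages share the strain and the collection from the same position on the plant, and no treatment or genotype differs between them. The labels name no batch. How many plants, bolls or seeds were pooled in a library is not given in the sources used here.

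Nucleosomes wrap DNA around a core of H2A, H2B, H3 and H4, and H1 binds the linker DNA between them. The canonical forms, among them H3.2, are made mainly in S phase to package newly copied DNA. The H2A genes without a variant name were grouped by description alone, which does not show that each is canonical. Replacement variants such as H3.3 and H2A.Z are made through the whole cell cycle and are exchanged into chromatin without replication, while H2AX carries the mark of DNA breaks and the centromeric form of H3 underlies the kinetochore. Plant histone transcripts carry poly(A) tails, so a selection with oligo-dT beads, which the labels' protocols name, can capture them.

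The libraries held between 15.6 and 16.9 M counts. The list of fiber genes is given as a description, since no library of another tissue was there to test the label against. The summed level of 217 genes for fasciclin-like proteins, A-type expansins, 3-ketoacyl-CoA synthases and alpha tubulins was 15017 to 19407 FPKM (fragments per kilobase of gene model, scaled to the library total) at 5DPA and 26838 to 36556 at 15DPA. The 33 embryo and endosperm genes summed to 5.61 to 8.11 FPKM at 5DPA and 12.4 to 16.7 at 15DPA. Of this list, the genes of legumin and 2S albumin, storage proteins of the embryo, were at 0 in every library. Only 4 genes of the list had a mean of at least 1 FPKM and were tested, 3 for vicilin and 1 for oleosin. All 4 were higher at 15DPA at an edgeR adjusted p under 0.05 (log2 change 0.98 to 3.90), against 13.0% of all genes tested. Anthocyanidin reductase and related genes of ovule and seed coat, 16 in all, summed to 1321, 1667 and 1115 FPKM in 5DPA replicates 1, 2 and 3 and to 1290, 1979 and 599 in 15DPA replicates 1, 2 and 3. At both stages replicate 2 was the highest in that sum. On the first principal component of all genes, with 65.4% of the variance, 15DPA replicate 2 lay at -31.1, between the other 15DPA libraries (-89.7 and -100.4) and the 5DPA libraries (59.3 to 94.8).

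Histone transcripts took a smaller part of the fiber transcriptome at 15DPA than at 5DPA. They held 0.571%, 0.761% and 0.527% of all counts in 5DPA replicates 1, 2 and 3, and 0.129%, 0.195% and 0.137% in 15DPA replicates 1, 2 and 3. Every 5DPA library was above every 15DPA library, and replicate 2 was the highest of each stage. The means were 0.620% ± 0.124 and 0.154% ± 0.036 (SD, n = 3 each), 4.03-fold apart, with an exact two-sided permutation p of 0.1, the smallest that 3 libraries against 3 can give. Since these are bulk samples, fewer cells that make histones and less histone RNA in each cell cannot be told apart.

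Of the 128 members, 117 had a mean of at least 1 FPKM over the 6 libraries and were tested, and 6 of the remaining 11 had no read in any library. In edgeR's quasi-likelihood test with Benjamini-Hochberg adjustment over all 40054 genes tested, 91 of the 117 were lower at 15DPA at an adjusted p under 0.05, against 10.4% of all genes tested. None was called higher, while 13.0% of all genes tested were. A positive log2 change was seen in 5 members, 1 of which had an unadjusted p under 0.05, and DESeq2 called none higher either. A fall of at least 2-fold was called for 87 members, against 6.49% of all genes tested. The ranges of the stages lay apart, with 15DPA below, for 107 tested members, against 37.3% of all genes tested. The median log2 change of the tested members was -1.97 (range -3.71 to 1.37), and that of all genes tested was -0.04. Without 15DPA replicate 1 the number of members called lower was 59, and 821 of all genes tested were, against 4151 with all libraries.

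**Figure D1:**
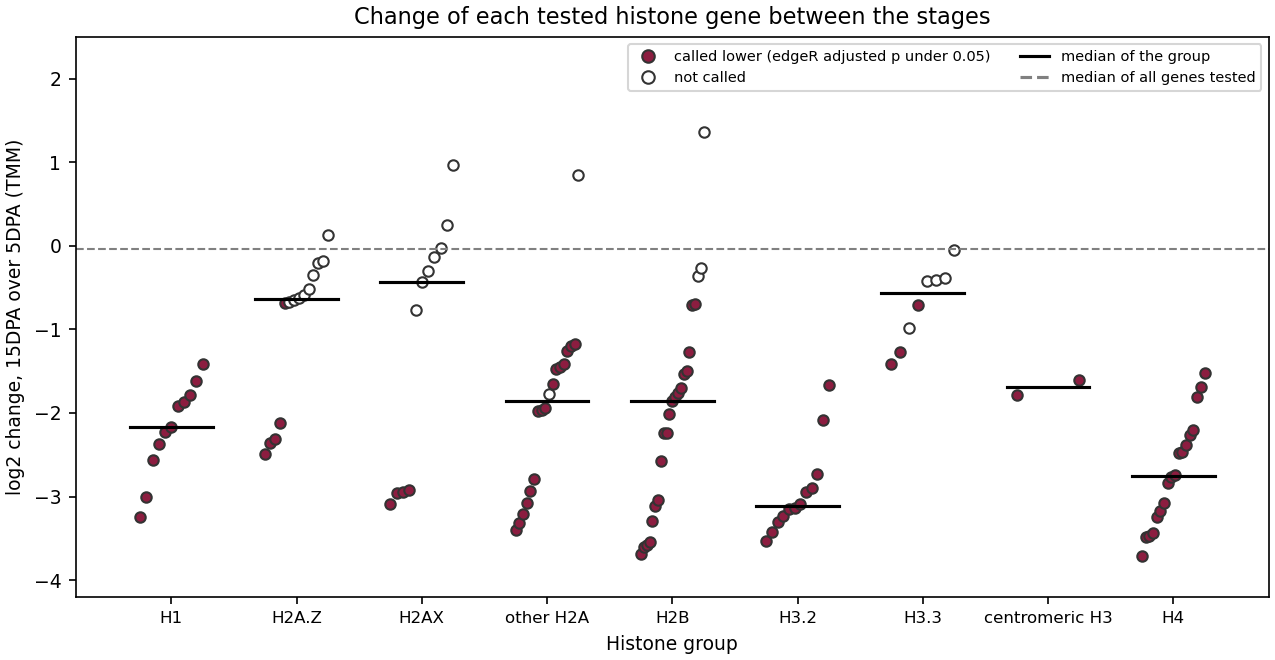
Log2 change (15DPA over 5DPA, edgeR with TMM scaling) of each tested histone gene, by group on the x axis. Filled points were called lower, open points were not called, black lines are group medians, and the dashed line is the median of all genes tested (-0.04). The points of H3.2 and H4 lie lowest, with medians of -3.12 and -2.76, and those of H2AX, H3.3 and H2A.Z lie nearest to the dashed line.

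The groups differed in how many of their genes fell. All 18 tested genes of H4, all 12 of H3.2, all 11 of H1 and both of centromeric H3 were called lower, as were 20 of 23 tested H2B genes and 16 of 18 tested H2A genes without a variant name. Of the variants, 3 of 8 H3.3 genes, 5 of 14 tested H2A.Z genes and 4 of 11 H2AX genes were called lower. Leaving out 1 library, the number of H1 genes called lower was 6 without 15DPA replicate 1 and 6 without 5DPA replicate 2, and that of H2A.Z genes was 0 without either of these and 1 without 5DPA replicate 1 or 3. The number of H3.2 genes was 6 without 15DPA replicate 1 and 8 without 5DPA replicate 2. The median log2 changes were -3.12 for H3.2, -2.76 for H4, -2.17 for H1, -1.86 for both H2B and the other H2A, -1.70 for centromeric H3, -0.64 for H2A.Z, -0.56 for H3.3 and -0.43 for H2AX. The H2A.Z genes were mixed, from -2.49 to 0.13. By description, 2 of 3 genes of H2A variant 1, 2 of 3 of probable H2A variant 1 and 1 of 8 of probable H2A variant 3 were called lower. These counts and medians are a description, and the difference between groups was tested only as shares of class sums, which follow.

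**Figure D2:**
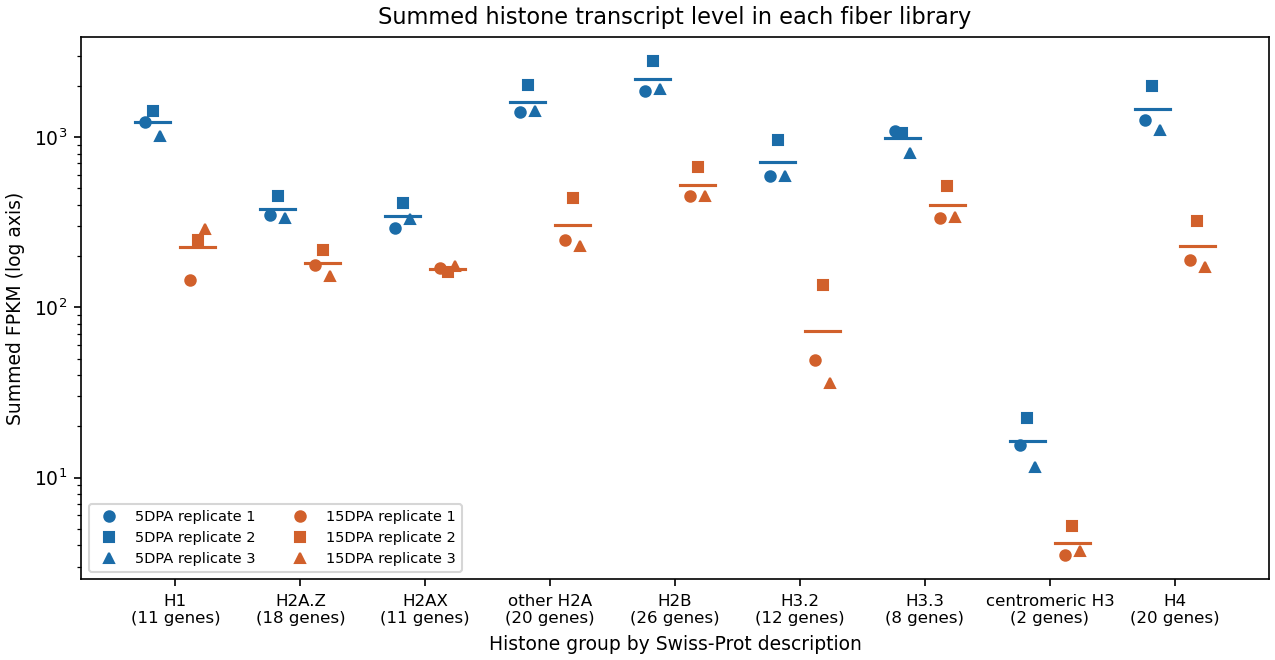
Summed FPKM of each histone group (log axis) in each of the 6 libraries, with 5DPA and 15DPA libraries marked apart. In each group the 15DPA points lie below the 5DPA points, by the most in H3.2 (9.81-fold between the stage means) and by the least in H2AX (2.04-fold).

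H3 forms the inner tetramer of the nucleosome together with H4. The 12 H3.2 genes, the canonical form, summed to 595, 963 and 593 FPKM in 5DPA replicates 1, 2 and 3, and to 48.8, 135 and 35.9 in 15DPA replicates 1, 2 and 3. The 8 H3.3 genes, the replacement form, summed to 1093, 1056 and 803 FPKM at 5DPA and to 334, 515 and 340 at 15DPA. Both sums were lower in every 15DPA library than in any 5DPA library, and H3.2 in 15DPA replicate 2 was 3.75 times that in 15DPA replicate 3. In stage means H3.2 stood at 717 ± 213 and 73 ± 53.6 FPKM (9.81-fold), and H3.3 at 984 ± 158 and 397 ± 103 FPKM (2.48-fold; SD, n = 3 each).

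Per unit of H3.3, the fibers had 0.544, 0.912 and 0.738 of H3.2 at 5DPA and 0.146, 0.261 and 0.105 at 15DPA, in summed FPKM. The groups did not overlap, and the means of 0.732 ± 0.184 and 0.171 ± 0.0808 were 4.28-fold apart (exact two-sided permutation p = 0.1, the smallest possible here). As a share of all H3 FPKM, H3.3 was 64.2%, 51.7% and 57.1% at 5DPA and 86.5%, 78.7% and 89.6% at 15DPA. Thus H3.3 was the larger part of the H3 transcript pool in all 6 libraries, and its share was 27.3 percentage points higher at 15DPA (57.7% ± 6.25 against 84.9% ± 5.63, exact two-sided permutation p = 0.1). Replicate 2 had the lowest H3.3 share at each stage. A share is free of library scaling, since both of its terms come from the same library.

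**Figure D3:**
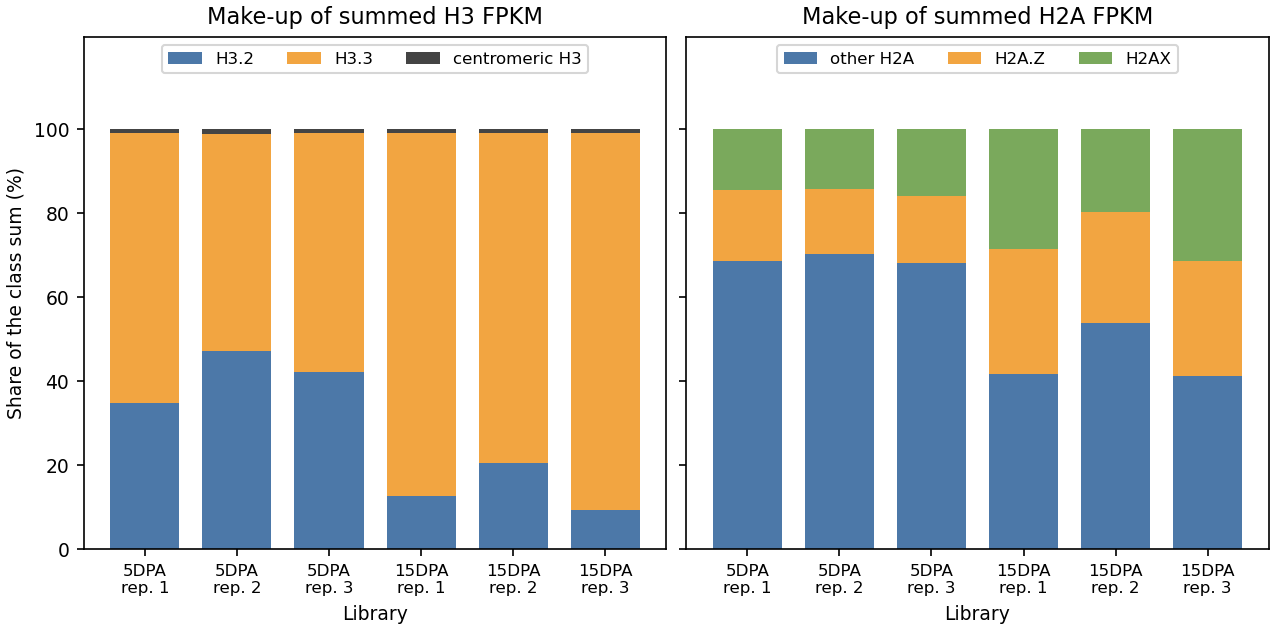
Make-up of the summed FPKM of H3 (left) and H2A (right) in each library, as stacked shares of the class sum in percent. H3.3 goes from 51.7 to 64.2% at 5DPA to 78.7 to 89.6% at 15DPA, and H2A.Z from 15.5 to 17.1% to 26.5 to 29.7%.

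The H3 gene with the highest mean over the 6 libraries was Gh_D03G042300 (H3.3; D03, 5026786 to 5027484), with 420, 377 and 282 FPKM at 5DPA and 79.4, 158 and 96.5 at 15DPA. Its stage ranges lay apart, and it fell by 1.42 ± 0.24 (log2 ± SE, edgeR adjusted p = 0.01). The next gene on the same strand, Gh_D03G042200 (H3.3; D03, 5020245 to 5021742), had 286, 257 and 186 FPKM at 5DPA and 111, 152 and 103 at 15DPA. It fell by 0.71 ± 0.20 (edgeR adjusted p = 0.0379), a call that was lost without 15DPA replicate 1 (0.131), 15DPA replicate 3 (0.0758), 5DPA replicate 1 (0.114) or 5DPA replicate 2 (0.114). The neighbours thus both had 5DPA above 15DPA, and Gh_D03G042200 had the higher mean at 15DPA (121.8 against 111.3 FPKM). Gh_A02G158200 (H3.3; A02, 95561385 to 95566796) had 240.0, 256 and 199 FPKM at 5DPA and 66.0, 101 and 69.2 at 15DPA, and fell by 1.27 ± 0.18 (edgeR adjusted p = 0.00629). The other 5 H3.3 genes were not called by edgeR, with log2 changes from -0.98 to -0.05, although 3 of them had an unadjusted p under 0.05 and DESeq2 called 1 lower. Over the 8 genes, the ratio of the 5DPA to the 15DPA mean FPKM ran from 1.26 to 3.23.

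The H3.2 genes had ratios from 3.89 to 14.1, with a median of 10.5, so the lowest ratio of the H3.2 genes was above the highest of the H3.3 genes. Gh_A13G242600 (A13, 106905863 to 106906754) had 92.9, 125 and 91.4 FPKM at 5DPA and 5.18, 19.7 and 2.80 at 15DPA. Gh_A08G273900 (A08, 124267576 to 124271206) had 73.9, 153 and 72.1 FPKM at 5DPA and 9.16, 19.6 and 3.33 at 15DPA. In both, replicate 2 was the highest library of its stage, without overlap of the stages. Gh_A13G242600 fell by 3.23 ± 0.58 (edgeR adjusted p = 0.0118) and Gh_A08G273900 by 2.95 ± 0.56 (edgeR adjusted p = 0.0131), and both calls were lost without 15DPA replicate 1 (0.0553 and 0.0629).

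Centromeric H3, which replaces H3 in the nucleosomes of centromeres, was rare, at 16.4 ± 5.46 FPKM in sum at 5DPA and 4.14 ± 0.935 at 15DPA. Gh_D07G148700 (D07, 22840226 to 22843377) had 7.86, 11.9 and 6.48 FPKM at 5DPA and 2.32, 2.79 and 1.88 at 15DPA. Gh_A07G148700 (A07, 30376294 to 30378961) had 7.62, 10.4 and 4.99 FPKM at 5DPA and 1.20, 2.43 and 1.80 at 15DPA. Neither gene's stages overlapped, and they fell by 1.61 ± 0.27 (edgeR adjusted p = 0.0101) and 1.78 ± 0.39 (edgeR adjusted p = 0.0188). The call of Gh_A07G148700 was lost without 15DPA replicate 1 (0.0738), 5DPA replicate 1 (0.0522) or 5DPA replicate 2 (0.0803). The centromeric share of all H3 was 0.939% at 5DPA and 0.892% at 15DPA (exact two-sided permutation p = 0.7).

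H4, the partner of H3, was called lower in each tested gene. Its sum was 1255, 2008 and 1101 FPKM in 5DPA replicates 1, 2 and 3 and 191, 319 and 173 in 15DPA replicates 1, 2 and 3, or 1455 ± 485 and 228 ± 79.9 in stage means, 6.39-fold apart. Of all histone FPKM, H4 made up 16.1% at 5DPA and 10.6% at 15DPA (exact two-sided permutation p = 0.1). The description names H4 variant TH011, a wheat entry, for 19 of the 20 genes, so the description does not separate forms of H4.

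Among the H4 genes the most abundant at 5DPA was Gh_A03G048900 (A03, 7307300 to 7307611), with 229, 315 and 231 FPKM at 5DPA and 69.3, 81.2 and 70.2 at 15DPA. The 15DPA libraries were close together, well below the lowest 5DPA library, and the gene fell by 1.52 ± 0.15 (edgeR adjusted p = 0.00242). Gh_A03G052700, on the same chromosome (A03, 7955765 to 7956265), had 118, 204 and 92.6 FPKM at 5DPA and 5.52, 17.4 and 3.15 at 15DPA. It fell by 3.71 ± 0.55 (edgeR adjusted p = 0.00717), the lowest log2 change of any tested member, so the H4 genes of A03 spanned both ends of the H4 range. Gh_D05G097600 (D05, 8120154 to 8120465) had 197, 329 and 164 FPKM at 5DPA and 22.5, 52.0 and 27.9 at 15DPA, and fell by 2.47 ± 0.33 (edgeR adjusted p = 0.00551). Gh_D03G148000 (D03, 46946568 to 46947167) had 120.0, 194 and 120.0 FPKM at 5DPA and 32.9, 45.3 and 31.9 at 15DPA, and fell by 1.69 ± 0.21 (edgeR adjusted p = 0.00438). In each of the 4, the stages did not overlap and replicate 2 was the highest at both stages.

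**Figure D4:**
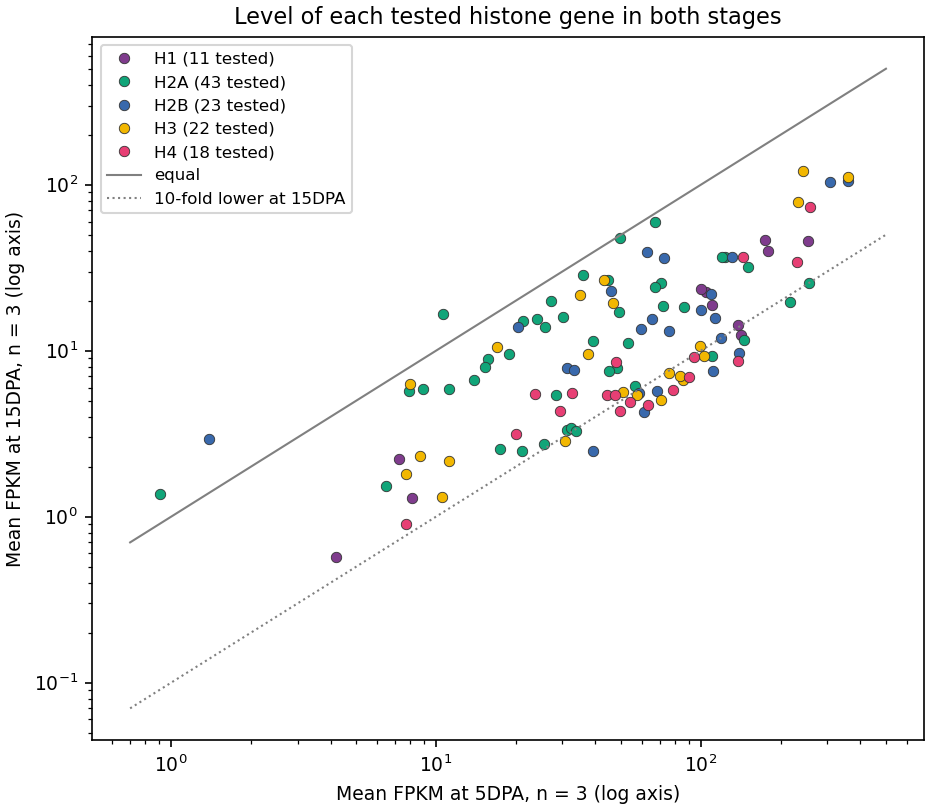
Mean FPKM at 15DPA (y axis) against mean FPKM at 5DPA (x axis) of each tested histone gene, n = 3 libraries each, on log axes, coloured by class. The solid line marks equal levels and the dotted line a level 10-fold lower at 15DPA. Most points lie below the solid line, and the genes near it are mainly H2A and H3 variants.

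H2A pairs with H2B on the outer faces of the nucleosome core. The 20 H2A genes without a variant name summed to 1403, 2029 and 1418 FPKM at 5DPA and to 249, 439 and 230.0 at 15DPA, or 1617 ± 357 and 306 ± 115, 5.28-fold apart. By description they were mixed, with folds of 8.85 for H2A, 3.945 for H2A.1, 3.396 for H2A.2 and 7.214 for H2A.5. H2A.Z summed to 351, 448 and 333 FPKM at 5DPA and to 177, 216 and 152 at 15DPA, 2.08-fold apart in the means. H2AX summed to 294, 411 and 329 FPKM at 5DPA and to 171, 161 and 175 at 15DPA, 2.04-fold apart. No group's stages overlapped in these sums.

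The share of H2A.Z in all H2A FPKM was 17.1%, 15.5% and 16.0% at 5DPA and 29.7%, 26.5% and 27.3% at 15DPA. It was 11.6 percentage points higher at 15DPA, a difference larger than the spread within either stage (16.2% ± 0.824 against 27.8% ± 1.68, exact two-sided permutation p = 0.1). H2AX had a share of 14.4%, 14.2% and 15.8% at 5DPA and of 28.6%, 19.7% and 31.4% at 15DPA, 11.8 percentage points higher in the mean (exact two-sided permutation p = 0.1). The H2A genes without a variant name went from 69.0% to 45.6% of H2A. At 15DPA, replicate 2 had the lowest share of both variants.

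Of the H2A genes without a variant name, Gh_A08G003600 (A08, 274596 to 275390) had 219, 342 and 209 FPKM at 5DPA and 19.5, 49.6 and 7.18 at 15DPA. A gene in the corresponding run on D08, Gh_D08G003800 (D08, 251433 to 252221), had 182, 285 and 186 FPKM at 5DPA and 14.5, 35.3 and 8.88 at 15DPA. In both, replicate 2 was highest at each stage, and the 15DPA libraries spread more, in proportion, than the 5DPA libraries. They fell by 3.08 ± 0.58 (edgeR adjusted p = 0.0129) and 3.21 ± 0.45 (edgeR adjusted p = 0.00595). The call of Gh_A08G003600 was lost without 15DPA replicate 1 (0.0631) or 5DPA replicate 2 (0.0502). Gh_D08G025500 (H2A.1; D08, 2381482 to 2382697) had 135, 174 and 141 FPKM at 5DPA and 18.5, 48.1 and 28.7 at 15DPA, and fell by 1.97 ± 0.29 (edgeR adjusted p = 0.00678). Gh_A01G246200 (H2A.2; A01, 114754400 to 114755307) had 108, 164 and 98.5 FPKM at 5DPA and 38.8, 42.2 and 29.4 at 15DPA, and fell by 1.45 ± 0.21 (edgeR adjusted p = 0.00656).

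The most abundant H2A.Z gene at both stages, Gh_D11G134700 (D11, 12596413 to 12598318), was nearly level. It had 62.9, 73.8 and 64.5 FPKM at 5DPA and 62.1, 53.9 and 61.8 at 15DPA. The highest 15DPA library was just below the lowest 5DPA library, and the change of 0.13 ± 0.15 on the log2 scale was not called (edgeR adjusted p = 0.562). The change is positive with TMM scaling and negative with library totals alone (-0.18). As the other H2A.Z genes had lower sums at 15DPA, this gene's part of all H2A.Z FPKM was 17.9% at 5DPA and 33.6% at 15DPA (exact two-sided permutation p = 0.1). Gh_A07G233200 (A07, 92888121 to 92889863), the next in the mean of all 6 libraries but not at 15DPA, had 42.1, 64.8 and 38.1 FPKM at 5DPA and 8.25, 14.1 and 1.11 at 15DPA. It fell by 2.36 ± 0.64 (edgeR adjusted p = 0.0368), and its call was lost when any of 15DPA replicate 1 or the 5DPA libraries was left out (0.072 to 0.118).

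H2AX genes fell into a called and an uncalled set, seen after their values were known and given as a description. In 4 of the 11 genes the gene model leaves 98 to 99 bases of its span unlisted, as a short intron would. All 4 were called lower (median -2.95 on the log2 scale). In the other 7 genes the unlisted stretch was over 100 bases, and none was called by edgeR or DESeq2 (median -0.14, 1 at an unadjusted p under 0.05). Gh_A08G079000, of the first set, had 49.2, 72.6 and 46.9 FPKM at 5DPA and 5.24, 11 and 2.22 at 15DPA, and fell by 2.92 ± 0.45 (edgeR adjusted p = 0.00807). Gh_A08G079000 had the highest mean of the H2AX genes at 5DPA, and the 2 highest in the mean of all 6 libraries belong to the second set. Gh_Contig00516G000300 (Contig00516, 30979 to 33076) had 42.3, 51.1 and 55.6 FPKM at 5DPA and 57.3, 43.0 and 44.0 at 15DPA, and Gh_D08G232100 (D08, 64365465 to 64366470) had 32.1, 59.5 and 42.4 at 5DPA and 26.6, 24.1 and 29.5 at 15DPA. The stages overlapped in the first gene and not in the second, and neither was called (log2 change 0.25 ± 0.20, edgeR adjusted p = 0.373, which turns to -0.05 with library totals alone; and -0.43 ± 0.24, edgeR adjusted p = 0.217).

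H2B summed to 1869, 2784 and 1904 FPKM at 5DPA and to 451, 666 and 449.6 at 15DPA, or 2186 ± 518 and 522 ± 124, 4.19-fold apart and without overlap. Its share of all histone FPKM was 24.5% at 5DPA and 24.8% at 15DPA (exact two-sided permutation p = 0.8). Gh_A03G051300 (A03, 7728047 to 7728490) had 326, 448 and 305 FPKM at 5DPA and 87.0, 138 and 89.0 at 15DPA, and fell by 1.5 ± 0.20 (edgeR adjusted p = 0.0054). Gh_D03G145600 (D03, 46635951 to 46636684) had 275, 366 and 278 FPKM at 5DPA and 87.2, 134 and 92.1 at 15DPA, and fell by 1.27 ± 0.18 (edgeR adjusted p = 0.00631). These 2 genes of group 3 chromosomes were the highest H2B genes in every library. Gh_D08G003700 (D08, 247325 to 248044) had 116, 168 and 111 FPKM at 5DPA and 38.5, 40 and 31.8 at 15DPA, and fell by 1.54 ± 0.18 (edgeR adjusted p = 0.00371).

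Gh_A05G073100 (H2B; A05, 8131192 to 8131617) had a larger change. It had 117, 183 and 119 FPKM at 5DPA and 6.35, 20.1 and 2.71 at 15DPA, and fell by 3.58 ± 0.57 (edgeR adjusted p = 0.00865). At 5DPA it was near Gh_D08G003700 in level, and at 15DPA it was below it in every library. All 5 tested genes described as H2B.1 were called lower, with a median of -3.55, below the median of H2B as a whole. They ran from -3.69 to -0.70, the smallest change being that of Gh_D04G137400 (edgeR adjusted p = 0.0445). The member with the highest positive log2 change was also an H2B gene, Gh_A13G111400, named after its values were seen, with 1.91, 0.748 and 1.51 FPKM at 5DPA and 2.14, 2.20 and 4.46 at 15DPA. It was higher in every 15DPA library but rare, and its change of 1.37 ± 0.55 was not called (unadjusted p = 0.0385, edgeR adjusted p = 0.106).

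H1, the linker histone, summed to 1226, 1422 and 1016 FPKM at 5DPA and to 145, 249 and 289 at 15DPA, or 1221 ± 203 and 228 ± 74.2, 5.37-fold apart. Its share of all histone FPKM was 13.8% at 5DPA and 11% at 15DPA (exact two-sided permutation p = 0.4). At 15DPA H1 was highest in replicate 3, whereas the sums of H2A, H2B, H3 and H4 were highest in replicate 2. Gh_A11G188000 (A11, 24584999 to 24585637), the highest H1 gene in the mean of all 6 libraries but not at 15DPA, had 310.0, 267 and 185 FPKM at 5DPA and 17.9, 39.8 and 79.3 at 15DPA. Its 15DPA libraries differed more than 4-fold from lowest to highest, and it fell by 2.17 ± 0.50 (edgeR adjusted p = 0.0222), a call that was lost without 15DPA replicate 1 (0.0536), 5DPA replicate 1 (0.0595) or 5DPA replicate 2 (0.0718).

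Of the other abundant H1 genes, Gh_A08G069200 (H1.2; A08, 9656446 to 9657815) had 158, 208 and 156 FPKM at 5DPA and 41.8, 49.2 and 47.6 at 15DPA, and fell by 1.62 ± 0.16 (edgeR adjusted p = 0.00231). Gh_D08G064500 (H1.2; D08, 8001947 to 8002885) had 156, 233 and 148 FPKM at 5DPA and 29.8, 43.9 and 45.7 at 15DPA, and fell by 1.87 ± 0.23 (edgeR adjusted p = 0.0042). Gh_A13G192600 (H1; A13, 101059323 to 101060408) had 133, 169.5 and 123 FPKM at 5DPA and 6.78, 22.4 and 8.22 at 15DPA, and fell by 3.25 ± 0.40 (edgeR adjusted p = 0.00447). The stages did not overlap in any of the 3. The changes of the H1.2 genes were smaller than that of Gh_A13G192600.

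The gene models of 49 members are a single block, with a length equal to the span from start to end. They are all 26 H2B genes, 16 of 20 H4 genes and 7 of 12 H3.2 genes. No model of H1, H2A, H3.3 or centromeric H3 is of this kind. Among the tested members, 42 of 45 in a single block were called lower (median log2 change -2.47) and 49 of 72 with a gap (median -1.72). Both kinds occur in H3.2 and H4. The medians were -3.10 for the 7 H3.2 genes in a single block and -3.15 for the 5 with a gap, and -2.77 for the 15 tested H4 genes in a single block and -2.48 for the 3 with a gap.

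Histone genes lay close together in places. With neighbours taken as members at most 100 kb apart, 41 members formed 12 runs, and 36 of their 39 tested genes were called lower (median log2 change -2.25). Of the 78 tested members outside runs, 55 were called lower (median -1.79). The runs held H1, H2B, H3.3, H4 and H2A genes without a variant name, but no H2A.Z, H2AX, H3.2 or centromeric H3 gene. Members in and outside runs thus differ in class make-up, whose part in these counts was not tested. A run on A08, from 212562 to 308782, held 7 members for H4, H2B and H2A, and all 6 tested were called lower, with log2 changes from -3.48 to -2.24. A run on D08, from 183556 to 359409, held 6 members of the same classes, all called lower, from -3.44 to -1.54. In a pair on A11, by contrast, the H1 gene Gh_A11G188000 fell and its H3.3 neighbour, 14.9 kb from the start of the first to the end of the second, was not called (-0.05). Summed over subgenomes, the A members stood at 4363 ± 987 FPKM at 5DPA and 989 ± 234 at 15DPA, and the D members at 4505 ± 963 and 1071 ± 290. How the counting treated reads that match several near-identical histone genes, or both subgenome copies, is not given in the sources used here. A value for 1 gene is uncertain for that reason, and a class sum is less exposed to it.

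**Figure D5:**
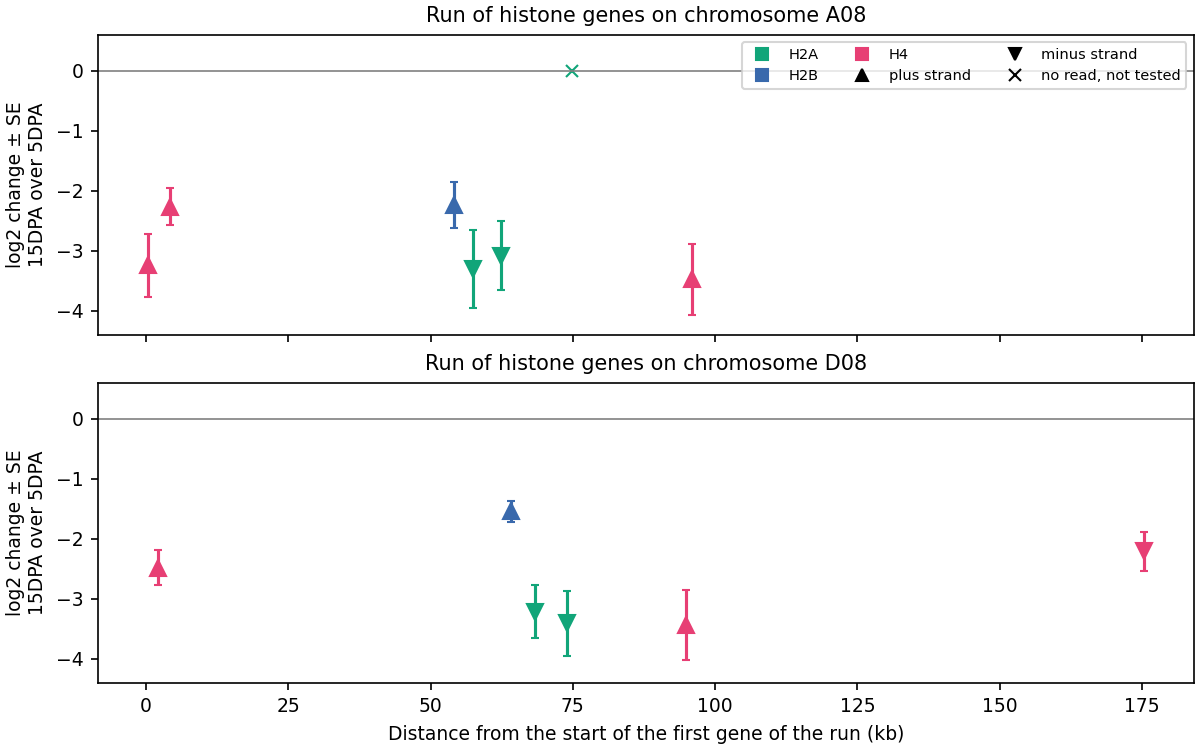
Log2 change ± SE (15DPA over 5DPA, edgeR) of the histone genes in the runs on A08 (top) and D08 (bottom), against distance in kb from the start of the first gene of the run. Colour marks the class, the triangle's direction the strand, and a cross a gene with no read. Every tested gene lies below 0, from -3.48 to -1.54 over both runs.

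Histones are escorted and deposited by chaperones, and are used at replication forks. Of 31 tested chaperone genes 5 were called lower and 2 higher (median log2 change -0.19), against 10.4% and 13.0% of all genes tested. Those called lower included 2 FAS1 genes of chromatin assembly factor 1, which deposits H3 and H4 behind the fork. They were Gh_A02G138700 (-2.19 ± 0.48, edgeR adjusted p = 0.0193) and Gh_D03G067300 (-2.25 ± 0.46, edgeR adjusted p = 0.0162). The FAS1 genes Gh_A13G099800 (-0.2, edgeR adjusted p = 0.695) and Gh_D13G103200 (-0.47, edgeR adjusted p = 0.429), also named after their values were seen, were not called. The others called lower were 2 genes of HIRA, which deposits H3.3, and 1 of MSI1, a histone-binding protein. The HIRA genes were Gh_A08G008600 (-0.69 ± 0.21, edgeR adjusted p = 0.0486) and Gh_D08G008200 (-1.09 ± 0.22, edgeR adjusted p = 0.0162). The MSI1 gene was Gh_A13G014000 (-0.62 ± 0.17, edgeR adjusted p = 0.0353). Leaving out 1 library, the calls of Gh_A08G008600 and Gh_A13G014000 held only without 15DPA replicate 2 (adjusted p up to 0.16 and 0.122 otherwise), and that of Gh_A02G138700 was lost without 15DPA replicate 1 (0.0802) or 5DPA replicate 2 (0.0734). Those called higher were Gh_A02G141600 for nucleosome assembly protein 1;1 (0.64 ± 0.19, edgeR adjusted p = 0.0472) and Gh_D13G204700 for SPT16 of the FACT complex (0.63 ± 0.15, edgeR adjusted p = 0.0234), named after their values were seen, as were Gh_D03G067300 and Gh_D08G008200. The chaperone gene of the highest level, Gh_D06G081200 for nucleosome assembly protein 1;3, had 307 ± 36.0 FPKM at 5DPA and 242 ± 15.5 at 15DPA and was not called (-0.05, edgeR adjusted p = 0.857). The highest genes of ASF1, another chaperone of H3 and H4 (Gh_D11G178600, -0.32, edgeR adjusted p = 0.201), and of the SSRP1 subunit of FACT (Gh_A09G027000, -0.16, edgeR adjusted p = 0.358) were not called either.

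Of 63 tested replication genes 34 were called lower and 2 higher (median -1.54). The replicative helicase MCM had 14 of 18 called lower, ribonucleotide reductase, which makes deoxynucleotides, 6 of 8, the single-strand binding protein RPA 6 of 13, DNA polymerases alpha, delta and epsilon 6 of 20, and the sliding clamp PCNA 2 of 4. The MCM7 gene Gh_A11G116500 had 14.3, 30.8 and 13.9 FPKM at 5DPA and 2.02, 4.34 and 1.67 at 15DPA, with replicate 2 highest at both stages and no overlap. It fell by 2.6 ± 0.41 (edgeR adjusted p = 0.00828). The reductase gene Gh_D10G081600 fell by 2.65 ± 0.44 (edgeR adjusted p = 0.0095) and the RPA gene Gh_A11G367600 by 1.54 ± 0.38 (edgeR adjusted p = 0.0274), the latter call being lost without 15DPA replicate 1 or any 1 of the 5DPA libraries (0.0563 to 0.105). The PCNA gene Gh_A03G062700 (-0.89 ± 0.27, edgeR adjusted p = 0.0516) and the polymerase epsilon gene Gh_D05G081900 (-0.18, edgeR adjusted p = 0.602) were not called. Called higher were a second reductase gene, Gh_D02G041200 (1.38 ± 0.24, edgeR adjusted p = 0.0112), and the polymerase epsilon gene Gh_D02G157000 (1.13 ± 0.28, edgeR adjusted p = 0.0272), both named after their values were seen. Of both lists, 39 of the 94 tested chaperone and replication genes were called lower, but 2 without 15DPA replicate 1 and 8 without 5DPA replicate 2. In those fits 821 and 847 of all 40054 genes tested were called lower, against 4151 with all libraries.

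The lists for dividing cells, ovule and seed coat, and green tissue moved with the histone sums in part. Of 53 tested genes for mitotic proteins, 11 were called lower and 5 higher (median log2 change -0.75), against 10.4% and 13.0% of all genes tested. The list summed to 274 to 388 FPKM at 5DPA and 180.0 to 283 at 15DPA. Its families were mixed. Of 6 tested mitotic cyclins 0 were called, and of 2 tested B-type cyclin-dependent kinases 1 was called lower. Among spindle proteins, 3 of 9 tested KIN-5 genes and 2 of 12 tested TPX2 genes were called higher, and 2 of each were called lower. The 16 ovule and seed coat genes, 10 of them tested and none called by edgeR (1 at an unadjusted p under 0.05, 1 called by DESeq2), and the histones both had their highest library of each stage in replicate 2. Among the 117 tested members, 100 were highest of the 5DPA libraries in replicate 2, and 92 were highest of the 15DPA libraries in replicate 2. Chlorophyll a-b binding proteins of green tissue, 49 genes with 11 tested and 6 of those called lower, summed to 65.5 to 66.4 FPKM at 5DPA and 20.1 to 32.3 at 15DPA. Fibers are themselves cells of the seed coat, so the ovule and seed coat transcripts need not come from other cells. Which cells the transcripts of these lists came from, and the part of other cells in the histone values, was not tested. Leaving out both libraries numbered 2, an alternative chosen after seeing the data, 77 of the 117 tested members were called lower and none higher, and the H3.3 and H2A.Z shares of their classes were still higher at 15DPA.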

How the data were processed

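The authors deposited 1 gene table. Per the file headers, its columns for a library are read counts and FPKM. The deposited counts are whole and not normalized. The deposited FPKM values equal count per kilobase of gene model and library total in M counts, within 0.1% for each of 73622 genes. HISAT and StringTie are named in the submitters' processing notes. Not given in the sources used here are their versions, the genome build, the annotation and the use of strand. Overlapping genes on opposite strands therefore cannot be told apart, and coordinates are those of the file. Lines without a gene (2) were left out. Poly(A) RNA was isolated on oligo-dT beads, per the labels' protocols, and sequenced in pairs on Illumina HiSeq; the same text then speaks of fragmenting either fraction, with or without poly(A), so which fraction was used rests on the bead step.

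Groups came from sample titles. Genes with a mean of at least 1 FPKM were tested (40054 genes, 99.3% of counts) with edgeR 4.0.16 (glmQLFit, glmQLFTest, TMM, R 4.3.3), two-sided, Benjamini-Hochberg adjusted over all genes tested, threshold 0.05. SE is the log2 change divided by the root of F. FPKM sums and folds carry no TMM scaling. Python 3.11.15 with pandas 2.3.3 and scipy 1.17.1 gave sums, shares and exact permutation tests. At these totals 1 read per kilobase is 0.059 to 0.064 FPKM. The fit was tested on simulated data. The edgeR p-values set the stage difference against the spread between the 3 libraries of a stage, moderated over all genes tested. The separate origin of these libraries rests on the labels.

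The members and lists were chosen with earlier results of these data known. Named genes are the 4 of highest mean FPKM in each class, the 2 highest in each variant group and the highest of each chaperone or replication sub-list; others are named as chosen later. The pattern for the chaperone NASP was narrowed to a whole word and matched 0 genes. Alternatives were RLE scaling, library totals alone, no filter, a mean of at least 5 FPKM, DESeq2 1.42.0, limma 3.58.1 on log2(FPKM + 1) or log2(FPKM + 0.1), a replicate block and leaving out each library.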

Additional observations from a re-analysis of the deposited data

How the results depend on the processing

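The number of histone genes called lower, 91, was 90 to 102 under RLE scaling, library totals alone, no filter, a mean of at least 5 FPKM, DESeq2, both limma fits and a replicate block, and 77 without both libraries numbered 2; none was called higher under any of these. Leaving out 1 library gave 59 to 92, lowest without 15DPA replicate 1 (59) and 5DPA replicate 2 (68). Chaperone and replication genes called lower, 39 in the main test, ranged from 2 to 47 with 1 library left out. With library totals alone the median log2 change of all genes went from -0.04 to -0.33, with 7730 genes lower and 2879 higher against 4151 and 5206; relative to it, the histone median was -1.91, and -1.93 in the main test. H2A.Z genes called lower were 5 in the main test, 10 with library totals alone and 8 at a mean of at least 5 FPKM; H3.3 genes were 3, and 6 with library totals alone or at a mean of at least 5 FPKM. The H3.3 and H2A.Z shares were higher at 15DPA under every alternative run for them (22.1 to 30.5 and 10.7 to 14.0 percentage points). Signs turned in 4 uncalled genes, with the cause not tested. In the first 2 they turned only with library totals alone and in both limma fits, and not under RLE scaling or DESeq2. Gh_Contig00516G000300 was at -0.0494, -0.0485 and -0.0494 with library totals alone and limma with pseudocounts of 1 and 0.1, and Gh_D11G134700 at -0.18, -0.17 and -0.18 there. Gh_D06G081200 ran from -0.15 to 0.0755 with 1 library left out (0.0506 without 15DPA replicate 2, the highest without 5DPA replicate 3). Gh_D05G081900 ran from -0.37 to 0.0146 with 1 left out (the highest without 5DPA replicate 2) and was at 0.10 without both libraries numbered 2. The replicate numbers were not taken to pair the samples. Deviations of same-numbered libraries correlated at -0.217, 0.324 and 0.0617, and 15DPA replicates 1 and 3 correlated best with other numbers. The 0.324 of the libraries numbered 2 was the highest correlation between any libraries of the 2 stages. With 3 libraries a stage, these values cannot settle pairing. The block gave 92 histone and 46 chaperone and replication genes called lower, and a sign-flip p of 0.25, the smallest possible, for the shares. Depth limits the rarest members: 11 were below 1 FPKM and not tested.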

Other observations

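Outside the 128 members, 7 genes carry a histone name in the NR or KEGG column of the table alone. Of these, Gh_A11G154600 is described as a histone H2A deubiquitinase, an enzyme acting on histones and not a histone. Gh_D11G280900, which has a KEGG entry for H1 and is a hypothetical protein in the NR column, had 3.24 FPKM at 5DPA and 0.155 at 15DPA in the mean and was lower (edgeR adjusted p = 0.0117). The H3.v1 gene Gh_A03G162500 had 1.92 and 1.32 FPKM and was not called (edgeR adjusted p = 0.671), nor was Gh_D10G008300, described as H1-II-like, with 4.12 and 3.85 (edgeR adjusted p = 0.68).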
